A study of Mus musculus with 20 samples.

Results

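Cyp2b10 and 8 further mouse genes, of the Cyp2b family or read as targets of the constitutive androstane receptor (CAR), were followed through 4 groups of liver arrays. The genes were taken by symbol: Cyp2b10, Cyp2b9, Cyp2b13, Cyp2b23, Por, Alas1, Akr1b7, Ephx1 and Cyp2a5. Of these 9 genes, 5 were analysed here, out of 16464 genes with a named probe set, each read by 1 probe set: Cyp2b10 (Entrez gene 13088), Cyp2b9 (13094), Cyp2b13 (13089), Alas1 (11655) and Ephx1 (13849). Cyp2b23, Por, Akr1b7 and Cyp2a5 were not analysed here. All mice were C57BL/6 males of 10 weeks weighing 21 to 27 g, and all received oral gavage for 25 days. The labels give no engineered allele. One group was given ethinylestradiol (EE2), a synthetic estrogen, at 3.70 mg/kg in sunflower oil, and its control group was given sunflower oil alone. Another group was given chlorpromazine (CPZ), an antipsychotic drug, at 10 mg/kg in phosphate-buffered saline (PBS), and its control group was given PBS alone. Each group had 5 arrays, hybridised with RNA from the left lateral liver lobe, and an array is named here by its group and the sample number in the labels. Since the labels number the samples but name no mouse for each, the spread behind every p-value is that between samples, which may be partly technical.

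CAR is a nuclear receptor that is held in the hepatocyte cytoplasm, moves to the nucleus when a drug binds it or releases it from that hold, and there pairs with the retinoid X receptor to switch on drug-metabolising genes. Cyp2b10, a cytochrome P450 that oxidises many drugs, is its textbook target in mouse liver. Cyp2b9 and Cyp2b13 are close relatives of Cyp2b10 that mouse liver expresses with a female bias, Alas1 makes the first and rate-limiting step of heme synthesis and so supplies the cofactor of P450 enzymes, and Ephx1 is the microsomal epoxide hydrolase that acts on reactive products of P450 enzymes.

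The 3 Cyp2b genes lie next to each other on chromosome 7, in the RefSeq order Cyp2b10, Cyp2b13, Cyp2b9. The sequences around their start sites are shown because Cyp2b9 and Cyp2b13, nearly identical there, gave different readings below. Each line gives the 300 bases from 250 before to 50 after the annotated start, 5′ to 3′ on the plus strand, from RefSeq on GRCm38.p6, and the capitals in the Cyp2b9 and Cyp2b13 lines mark the bases at which these 2 windows differ.
Cyp2b10 (chr7:25897408-25897707): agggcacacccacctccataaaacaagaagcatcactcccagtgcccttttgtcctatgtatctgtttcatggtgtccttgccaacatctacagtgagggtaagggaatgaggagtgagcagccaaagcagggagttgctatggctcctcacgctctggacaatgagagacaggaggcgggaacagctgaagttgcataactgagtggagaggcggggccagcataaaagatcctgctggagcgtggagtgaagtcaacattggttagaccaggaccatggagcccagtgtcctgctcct
Cyp2b9 (chr7:26173159-26173458): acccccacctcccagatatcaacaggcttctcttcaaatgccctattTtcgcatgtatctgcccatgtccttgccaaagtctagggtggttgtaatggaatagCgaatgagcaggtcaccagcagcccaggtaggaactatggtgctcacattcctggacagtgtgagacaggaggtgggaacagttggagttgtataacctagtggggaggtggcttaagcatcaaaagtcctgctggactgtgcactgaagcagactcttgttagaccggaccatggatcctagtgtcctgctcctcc
Cyp2b13 (chr7:26061245-26061544): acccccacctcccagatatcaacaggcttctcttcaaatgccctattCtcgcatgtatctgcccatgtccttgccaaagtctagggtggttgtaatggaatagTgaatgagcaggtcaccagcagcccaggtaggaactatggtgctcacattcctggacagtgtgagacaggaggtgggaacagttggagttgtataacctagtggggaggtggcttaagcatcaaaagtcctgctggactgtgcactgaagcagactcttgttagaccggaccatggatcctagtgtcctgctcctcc
Counted from 1 at the 5′ end of the window, the differences from Cyp2b9 to Cyp2b13 are T48C and C104T, which leaves 298 of 300 bases identical (99.3%). In a global alignment the Cyp2b10 window was identical to either of them at 223 of 311 aligned positions (71.7%), with 66 mismatches and 22 gapped positions. On both strands the windows were searched for the nuclear receptor half-sites AGGTCA and AGTTCA, for direct repeats of each with a short spacer (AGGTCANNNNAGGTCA and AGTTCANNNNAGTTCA), and for TTCNNNGAA, the core that STAT factors bind. The half-site AGGTCA occurred 1 time in Cyp2b9 and 1 time in Cyp2b13, at position 113 on the plus strand of both, and 0 times in Cyp2b10. Among 32851 RefSeq promoter windows of this length 16.3% held AGGTCA, 14% AGTTCA and 8.3% TTCNNNGAA, while 0.0152% held the AGGTCA repeat, which contains the half-site 2 times, and 0.0122% the AGTTCA repeat. The other 4 patterns were not found in any of the 3 windows, which says only that these letters are absent there. The phenobarbital-responsive enhancer of Cyp2b10, the known CAR element, lies further upstream and was not examined.

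Cyp2b10 was higher after both compounds, and its 2 vehicle groups lay apart without passing the test over all genes. All values below are deposited log2 levels, so a difference of 1 is a doubling, and group values are means ± SD over 5 arrays. With sunflower oil alone Cyp2b10 read 3.40, 3.03, 3.59, 3.02 and 2.94 on arrays 2, 5, 6, 8 and 16. With EE2 it read 7.99, 6.60, 7.99, 7.34 and 7.89 on arrays 9, 13, 15, 17 and 18. All EE2 arrays lay above all oil arrays, and EE2 array 13 was the lowest of its group. With PBS alone the readings were 4.43, 3.95, 4.95, 4.94 and 4.17 on arrays 7, 10, 14, 19 and 20. With CPZ they were 8.07, 9.17, 8.57, 8.42 and 8.53 on arrays 1, 3, 4, 11 and 12. All CPZ arrays lay above all PBS arrays, and CPZ array 3 was the highest of the 20.

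**Figure D1:**
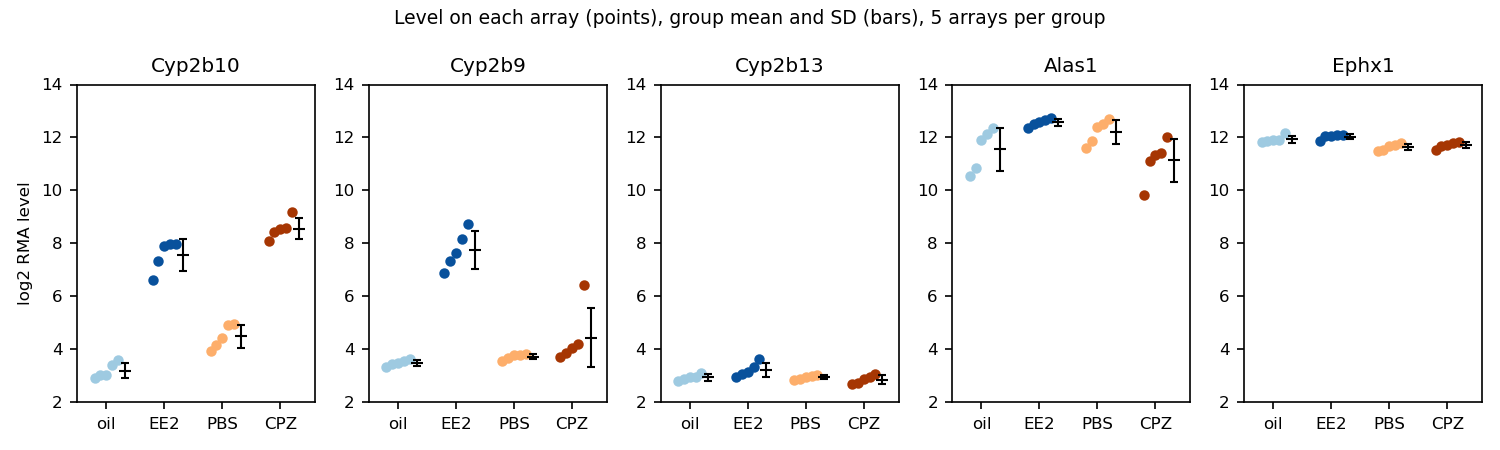
Log2 level of Cyp2b10, Cyp2b9, Cyp2b13, Alas1 and Ephx1 on each of the 20 arrays, in one panel per gene, with a point per array, sorted by level within a group, and a bar at the group mean ± SD (n = 5). Cyp2b10 is high in both treated groups, Cyp2b9 is high with EE2 and on CPZ array 3 (6.44), and the Cyp2b13 and Ephx1 groups lie within a narrow range.

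The Cyp2b10 mean rose from 3.20 ± 0.28 to 7.56 ± 0.60 with EE2, by 4.36 (SE 0.25, 95% interval 3.84 to 4.89, limma adjusted p = 1.6e-11, 20.6-fold). The oil level was close to the lower quartile of all genes on those arrays (3.16), where arrays tend to understate changes. The rise was number 22 in size of the 16464 genes. With CPZ the mean rose from 4.49 ± 0.45 to 8.55 ± 0.40, by 4.07 (SE 0.25, 95% interval 3.54 to 4.59, limma adjusted p = 9.18e-09, 16.8-fold), and this was the largest rise of any gene in that comparison. Both calls held under every alternative that was run, with rises of 4.20 to 4.60 for EE2 and 3.91 to 4.19 for CPZ.

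From lowest to highest the group means of Cyp2b10 were oil, PBS, EE2 and CPZ, and no neighbouring groups in this order overlapped: the highest EE2 array read 7.99 and the lowest CPZ array 8.07. The doses and vehicles of EE2 and CPZ differ, so their end levels stand side by side here without a test. The difference between the EE2 and the CPZ response, tested as an interaction, was 0.30 (SE 0.36, 95% interval -0.45 to 1.04, limma adjusted p = 0.558), which does not show that the responses are of equal size. The base level was 1.29 lower with oil than with PBS, and every oil array lay below every PBS array. This vehicle difference did not pass the test over all genes (difference -1.29, SE 0.25, 95% interval -1.82 to -0.76, limma adjusted p = 0.0672, unadjusted p = 5.3e-05). Of all genes 0.0486% were called between the vehicles and 0.771% had every oil array below every PBS array. Without PBS array 10 the difference was -1.43 and passed (limma adjusted p = 0.0436), and over all alternatives its adjusted p ran from 0.0436 to 0.228. The vehicle comparison shares its oil arrays with the EE2 comparison and its PBS arrays with the CPZ comparison, so these results are not independent.

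Of the 5 genes analysed, 4 rose and 0 fell with EE2 (Cyp2b10, Cyp2b9, Alas1 and Cyp2b13), where 45.9% of all genes were called, 19.2% as higher. For 3 of them, Cyp2b10, Cyp2b9 and Alas1, every EE2 array lay above every oil array, as for 14.6% of all genes. The median difference of the 5 was 1.01, against -0.07 over all genes. With CPZ 1 of the 5 rose, Cyp2b10, and 0 fell, where 0.796% of all genes were called, 0.443% as higher and 0.352% as lower. Cyp2b10 was also the 1 gene of the 5 with every CPZ array above every PBS array, as for 1.57% of all genes. The median with CPZ was 0.07, against 0.01 over all genes. Between oil and PBS 0 of the 5 were called by limma, and 2 of them, Cyp2b10 and Ephx1, had an unadjusted p under 0.05. The median between the vehicles was -0.23, against 0.00 over all genes. For counts at an unadjusted p, here and below, the share of all genes is not given, so no background stands beside them. The EE2 response differed from the CPZ response for 2 of the 5, Cyp2b9 and Alas1, where 31.6% of all genes were called.

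**Figure D2:**
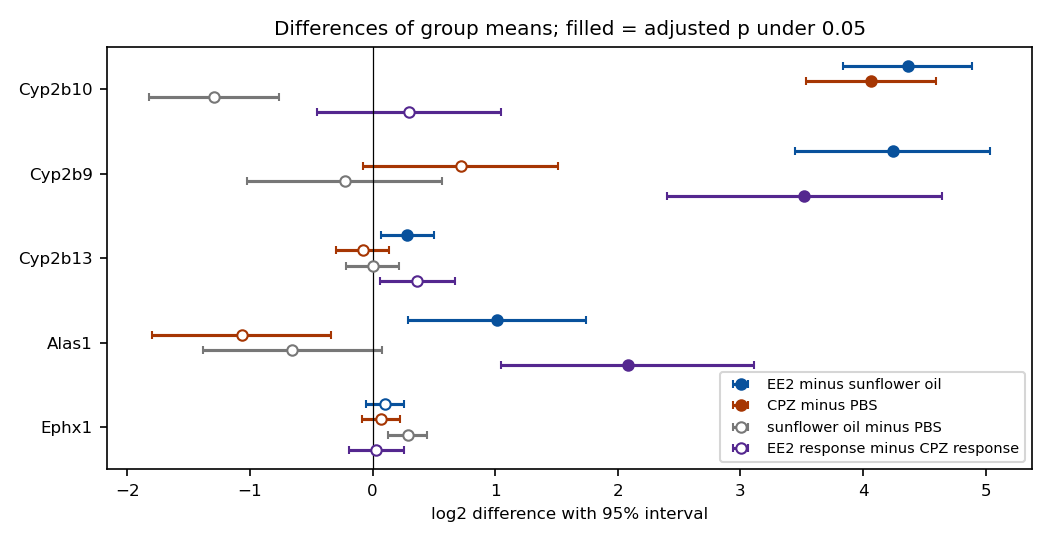
Difference of group means on the log2 scale (x axis, line at 0) with its 95% interval for the 5 genes in the 4 comparisons, n = 5 arrays a group, with filled points for adjusted p under 0.05. The intervals of Cyp2b10 with EE2 (3.84 to 4.89) and with CPZ (3.54 to 4.59) overlap, and those of Cyp2b9 (3.45 to 5.03 and -0.08 to 1.51) do not.

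Cyp2b9 rose with EE2 about as far as Cyp2b10, and with CPZ it was far above the PBS arrays on 1 array alone. On the oil arrays 2, 5, 6, 8 and 16 it read 3.51, 3.35, 3.45, 3.56 and 3.65. On the EE2 arrays 9, 13, 15, 17 and 18 it read 8.73, 7.32, 6.88, 7.63 and 8.16. The 2 groups were far apart and did not overlap. The PBS arrays 7, 10, 14, 19 and 20 read 3.80, 3.56, 3.82, 3.69 and 3.79. The CPZ arrays 1, 3, 4, 11 and 12 read 3.70, 6.44, 3.86, 4.19 and 4.06. CPZ array 3 stood 2.25 above the highest of the other 9 CPZ and PBS arrays, while CPZ array 1 lay within the PBS range. CPZ arrays 4, 11 and 12, at 3.86 to 4.19, lay above the highest PBS array (3.82) by less.

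The EE2 rise of Cyp2b9 was 4.24 (SE 0.38, 95% interval 3.45 to 5.03, limma adjusted p = 1.21e-08, 18.9-fold), from 3.50 ± 0.11 to 7.74 ± 0.72. It stayed between 3.99 and 4.46 in all alternatives. The CPZ mean was 4.45 ± 1.13 against 3.73 ± 0.11 with PBS, a difference of 0.72 (SE 0.38, 95% interval -0.08 to 1.51, limma adjusted p = 0.475). Without CPZ array 3 that difference was 0.22 (limma adjusted p = 0.795). The EE2 response of Cyp2b9 was larger than its CPZ response by 3.52 (SE 0.54, 95% interval 2.40 to 4.64, limma adjusted p = 3.77e-05), and by 4.02 without CPZ array 3. Between the vehicles Cyp2b9 differed by -0.23 (SE 0.38, 95% interval -1.02 to 0.57, limma adjusted p = 0.933). In the order of its levels, oil, PBS, CPZ and EE2, the EE2 arrays lay apart from their neighbour and the other neighbours overlapped.

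Cyp2b13, whose start region differs from that of Cyp2b9 at only the bases T48C and C104T shown above, read low in all groups. The oil arrays gave 2.90, 2.80, 2.96, 3.13 and 2.94, in the order of sample numbers used above. The EE2 arrays gave 3.64, 2.95, 3.13, 3.07 and 3.34. These overlap, with EE2 array 9 as the highest of the 20. The PBS arrays gave 3.03, 2.88, 3.00, 2.85 and 2.97, and the CPZ arrays 2.68, 2.97, 3.07, 2.88 and 2.72. These overlap as well, and on CPZ array 3, where Cyp2b9 read 6.44, Cyp2b13 read 2.97.

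The EE2 difference of Cyp2b13 was 0.28 (SE 0.10, 95% interval 0.07 to 0.50), which passed the test with a limma adjusted p of 0.0308. The call was lost with each array centred on its median (0.12, adjusted p = 0.289), with only the EE2 and oil arrays in the model (adjusted p = 0.0637) and without EE2 array 9 (0.18, adjusted p = 0.104), EE2 array 18 (0.25, adjusted p = 0.0724), oil array 2 (0.27, adjusted p = 0.059) or oil array 5 (0.25, adjusted p = 0.0773). All of its group means (2.86 to 3.23) lay near the lower quartile of all genes, where arrays can understate a change. Whether this touched the Cyp2b13 readings was not tested. Its CPZ difference was -0.08 (95% interval -0.30 to 0.14, limma adjusted p = 0.831), and its vehicle difference was 0.00 (95% interval -0.22 to 0.22). The EE2 response exceeded the CPZ response by 0.36 (SE 0.15, limma adjusted p = 0.064), which did not pass. It passed with quantile normalization (0.46, adjusted p = 0.0153) and without CPZ array 4, EE2 array 13, EE2 array 17 or oil array 8 (adjusted p of 0.0251 to 0.0496). Whether the Cyp2b9 and Cyp2b13 probe sets also bind RNA of the other gene or of Cyp2b10 was not tested. On CPZ arrays 1, 4, 11 and 12 Cyp2b10 read 8.07 to 8.57 and Cyp2b9 read 3.70 to 4.19. On CPZ array 3 Cyp2b10 read 9.17 and Cyp2b9 read 6.44.

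Along the Cyp2a and Cyp2b gene cluster of chromosome 7, 7 of 13 listed genes were analysed here. With EE2 3 rose, all of them the Cyp2b genes above, and 2 fell, against 19.2% of all genes higher and 26.7% lower, with a median difference of -0.04. Cyp2s1, a P450 gene at the cluster's edge that neighbours Cyp2b10 in the RefSeq order, fell by 0.21 (SE 0.07, limma adjusted p = 0.0204). Cyp2b19, known in mouse as a skin P450, fell by 0.14 (SE 0.06, limma adjusted p = 0.0476). It read 2.81 to 3.03 with oil and 2.68 to 2.83 with EE2, below the lower quartile of all genes (3.16 and 3.06). Cyp2s1 read a little above that quartile, at 3.41 to 3.73 with oil and 3.24 to 3.43 with EE2. Neither of these small falls passed with quantile normalization (adjusted p = 0.116 and 0.493) or when sample number was a covariate (0.0771 and 0.183). Cyp2s1 also lost its call without EE2 array 15 or oil array 2, and Cyp2b19 without EE2 array 9, 13 or 18 or oil array 2 or 8 and with only the EE2 and oil arrays in the model (adjusted p = 0.0707). Leaving out 1 array thus gave 0 to 2 falls in the cluster. The other 2, Cyp2a12 and Cyp2f2, differed by -0.05 and -0.04 with EE2 and did not pass. With CPZ Cyp2b10 was the 1 gene of the 7 that was called, against 0.796% of all genes. Between the vehicles 0 were called, against 0.0486%.

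**Figure D3:**
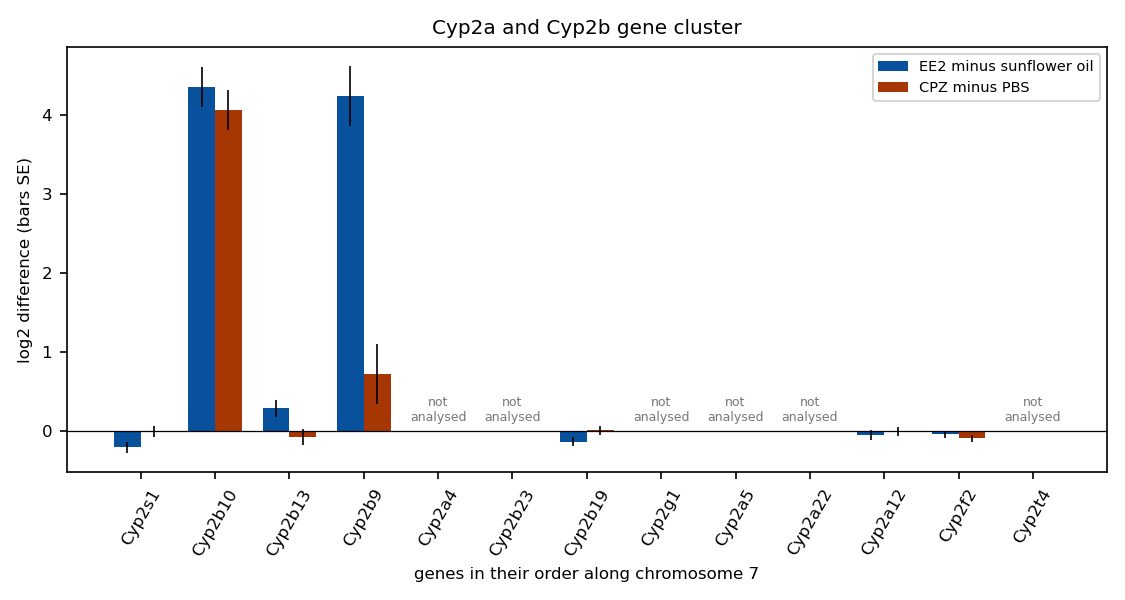
Log2 difference with its standard error (y axis) for the genes of the Cyp2a and Cyp2b cluster in their RefSeq order along chromosome 7 (x axis, order only), for EE2 minus oil and CPZ minus PBS, n = 5 arrays a group. Cyp2b10 rises in both comparisons (4.36 and 4.07), Cyp2b9 in the first (4.24), and Cyp2s1, Cyp2b19, Cyp2a12 and Cyp2f2 lie between -0.21 and 0.01.

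Alas1 was higher with EE2 than with its vehicle, and the CPZ mean lay below the PBS mean without passing the test. On the oil arrays 2, 5, 6, 8 and 16 it read 10.56, 10.84, 11.92, 12.13 and 12.34. On the EE2 arrays 9, 13, 15, 17 and 18 it read 12.51, 12.66, 12.37, 12.59 and 12.73. The EE2 arrays were tightly grouped above a wide oil group in which arrays 2 and 5 were the low ones. The PBS arrays 7, 10, 14, 19 and 20 read 12.38, 12.72, 12.49, 11.61 and 11.86. The CPZ arrays 1, 3, 4, 11 and 12 read 11.42, 11.35, 9.82, 12.00 and 11.13. CPZ array 4 was the lowest of the 20, and CPZ array 11 lay within the PBS range, so these groups overlapped.

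The EE2 mean of Alas1 was 12.57 ± 0.14 against 11.56 ± 0.80 with oil, a rise of 1.01 (SE 0.35, 95% interval 0.29 to 1.74, limma adjusted p = 0.0225, 2.02-fold). This call ended without oil array 2 (0.77, adjusted p = 0.0768), without oil array 5 (0.83, adjusted p = 0.0682) and when sample number was a covariate (0.82, adjusted p = 0.116). The CPZ mean was 11.14 ± 0.81 against 12.21 ± 0.46 with PBS, a difference of -1.07 (SE 0.35, 95% interval -1.80 to -0.34, limma adjusted p = 0.175, unadjusted p = 0.00624). Without CPZ array 4 it was -0.74 (limma adjusted p = 0.354). The EE2 response exceeded the CPZ response by 2.08 (SE 0.49, 95% interval 1.05 to 3.11, limma adjusted p = 0.0029), and by 1.67 when sample number was a covariate (adjusted p = 0.0815). The vehicles differed by -0.65 (SE 0.35, 95% interval -1.38 to 0.08, limma adjusted p = 0.637). Of the 6 lowest Alas1 arrays 5 were those numbered 1 to 5, at 9.82 to 11.42, and the lowest number in the EE2 group was 9. What the sample number records is not given in the sources used here, and its part in the Alas1 differences was tested only as the covariate above.

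Alas1 belongs to a list of heme synthesis and breakdown genes, of which 12 of 13 were analysed. With EE2 4 of the 12 rose and 6 fell, against 19.2% of all genes higher and 26.7% lower, with a median difference of -0.14. Alas2, the form of the enzyme used by erythroid cells, fell by 3.32 (SE 0.16, limma adjusted p = 9.82e-13), opposite to Alas1. Alad, the enzyme that uses the product of both synthases, fell by 0.58 (SE 0.06, adjusted p = 1.72e-07). Of the 4 breakdown genes 3 rose and 1 fell: the constitutive heme oxygenase Hmox2 rose by 0.62 (SE 0.05, adjusted p = 3.45e-09) and the biliverdin reductase Blvra rose by 0.50 (SE 0.06, adjusted p = 1.28e-06). The inducible heme oxygenase Hmox1 rose by 0.66 (SE 0.15, adjusted p = 0.00121) and the biliverdin reductase Blvrb fell by 0.27 (SE 0.08, adjusted p = 0.0103), both named after their values were seen. With CPZ 0 of the 12 passed in limma, where 0.796% of all genes were called. An unadjusted p under 0.05 was found for 3, with no share of all genes at that cut-off beside it.

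**Figure D4:**
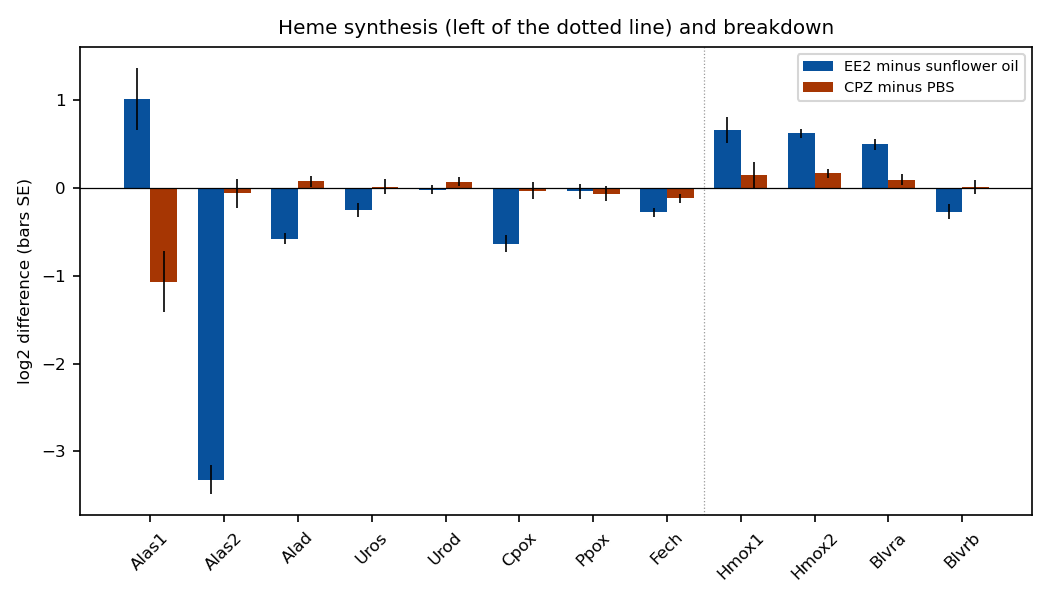
Log2 difference with its standard error (y axis) for the 12 heme synthesis and breakdown genes (x axis, synthesis left of the dotted line), EE2 minus oil and CPZ minus PBS, n = 5 arrays a group. With EE2 Alas1 (1.01) and Alas2 (-3.32) lie on opposite sides of 0, and with CPZ Alas1 (-1.07) lies farther from 0 than any other gene of the list.

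Ephx1 was high on every array and its groups lay close together. The oil arrays read 11.92, 12.16, 11.89, 11.85 and 11.82, and the EE2 arrays 12.04, 12.08, 11.88, 12.09 and 12.07, in the order of sample numbers used above. They overlap, and EE2 array 15 was below the other 4 of its group. The PBS arrays read 11.47, 11.77, 11.69, 11.73 and 11.53, and the CPZ arrays 11.54, 11.83, 11.81, 11.66 and 11.72. These overlap too. The EE2 difference was 0.10 (SE 0.07, 95% interval -0.05 to 0.26, limma adjusted p = 0.264), and it was 0.19 (adjusted p = 0.0491) with quantile normalization and -0.06 with each array centred on its median. The CPZ difference was 0.07 (SE 0.07, 95% interval -0.08 to 0.23, limma adjusted p = 0.778). Both intervals end far below the Cyp2b10 rises on the same arrays. Every oil array lay above every PBS array for Ephx1, against 0.917% of all genes, with a difference of 0.29 (SE 0.07, 95% interval 0.13 to 0.44) that did not pass (limma adjusted p = 0.195).

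Of the 4 epoxide hydrolase genes 0 rose and 2 fell with EE2, near the 45.9% of all genes called. Ephx2, the soluble epoxide hydrolase, fell by 0.66 (SE 0.04, limma adjusted p = 1.45e-10), and Ephx3 fell by 0.23 (SE 0.07, adjusted p = 0.00865), a call that quantile normalization ended (adjusted p = 0.116). Ephx3 read 3.08 to 3.51 with oil and 2.94 to 3.16 with EE2, near the lower quartile of all genes (3.16 and 3.06). With CPZ 0 of the 4 were called by limma, where 0.796% of all genes were called, and 0 had an unadjusted p under 0.05.

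The receptor and its regulators were read on 17 of 21 listed genes. With EE2 3 rose and 4 fell, with a median difference of 0.05, and this share of calls is close to the 45.9% of all genes. Nr1i3, which encodes CAR itself, read 8.91 to 9.20 on the oil arrays and 9.34 to 9.69 on the EE2 arrays, without overlap. It rose by 0.48 (SE 0.12, limma adjusted p = 0.00317), and by 0.31 with each array centred on its median (adjusted p = 0.0277). With CPZ its difference was 0.04 (SE 0.12, limma adjusted p = 0.951), and the 2 responses differed by 0.44 (SE 0.17, adjusted p = 0.0565), which did not pass. Nr1i2, the related receptor PXR, rose by 0.25 with EE2 (SE 0.09, limma adjusted p = 0.0368), a call lost with centred arrays (0.09, adjusted p = 0.411) and without several single arrays. Rxra, the partner of CAR, fell by 0.36 (SE 0.05, adjusted p = 1.48e-05). Egfr, the growth factor receptor whose signal keeps CAR in the cytoplasm, fell by 0.98 (SE 0.18, adjusted p = 1.87e-04). Foxo1, a forkhead factor that can assist CAR, rose by 0.41 (SE 0.09, adjusted p = 5.27e-04). With CPZ 0 of the 17 were called by limma, where 0.796% of all genes were called. An unadjusted p under 0.05 was found for 2, with no share of all genes at that cut-off beside it.

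Further targets of CAR and of PXR were read on 30 of 35 listed genes. With EE2 9 rose and 12 fell, with a median of -0.06, against 19.2% and 26.7% of all genes. With CPZ 3 rose and 0 fell, against 0.443% and 0.352% of all genes, with a median of 0.05. All 3 were Cyp2c genes, which encode P450 enzymes for fatty acids and drugs. Cyp2c55 read 7.76, 7.68, 8.42, 8.44 and 7.76 on the PBS arrays and 8.95, 9.71, 9.73, 9.92 and 9.45 on the CPZ arrays, without overlap. On the oil arrays it read 7.28, 7.55, 7.88, 7.70 and 7.02 and on the EE2 arrays 7.39, 7.45, 7.28, 7.68 and 7.69, which overlap. Cyp2c55 rose by 1.54 (SE 0.19, limma adjusted p = 6.39e-04) with CPZ, while with EE2 it differed by 0.01 (SE 0.19, 95% interval -0.38 to 0.41, adjusted p = 0.964). The EE2 response was below the CPZ response by a difference of -1.53 (SE 0.27, adjusted p = 1.65e-04). Cyp2c29 was the 1 further target called as higher after both compounds, by 0.37 with EE2 (SE 0.05, adjusted p = 1.4e-05) and by 0.43 with CPZ (SE 0.05, adjusted p = 8.16e-04), and its responses differed by -0.06 (SE 0.08, adjusted p = 0.566).

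Cyp2c54 went in opposite directions. It read 12.14, 11.87, 11.86, 11.88 and 12.09 with oil and 8.32, 8.34, 8.50, 8.51 and 8.19 with EE2, a fall by 3.59 (SE 0.14, limma adjusted p = 1.62e-14). With PBS it read 12.01, 12.13, 12.36, 11.31 and 12.15, and with CPZ 12.58, 12.76, 12.71, 12.37 and 12.76. All CPZ arrays were higher, by 0.65 (SE 0.14, adjusted p = 0.0268), a call that was lost with only the CPZ and PBS arrays in the model (adjusted p = 0.136), when sample number was a covariate (0.195) and without any 1 of CPZ arrays 1, 3, 4 and 12 or PBS array 7 (up to 0.077). The responses differed by -4.24 (SE 0.19, adjusted p = 9.78e-13). Abcb1a, a drug efflux pump, rose by 3.08 with EE2 (SE 0.15, adjusted p = 8.83e-13) and differed by -0.11 with CPZ (adjusted p = 0.842). The glutathione transferase Gsta4 and the carboxylesterase Ces2a fell with EE2 by 1.99 (adjusted p = 3.41e-11) and 1.65 (adjusted p = 5.39e-11). Cyp3a11, the classic PXR target, differed by 0.01 with EE2 (adjusted p = 0.911) and by -0.03 with CPZ (adjusted p = 0.875). Cyp3a11 read from 13.33 on oil array 16 to 13.57 on PBS array 10, near the top of the measured range. A rise in the RNA can be missed at such levels, so these differences do not show that PXR was inactive.

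**Figure D5:**
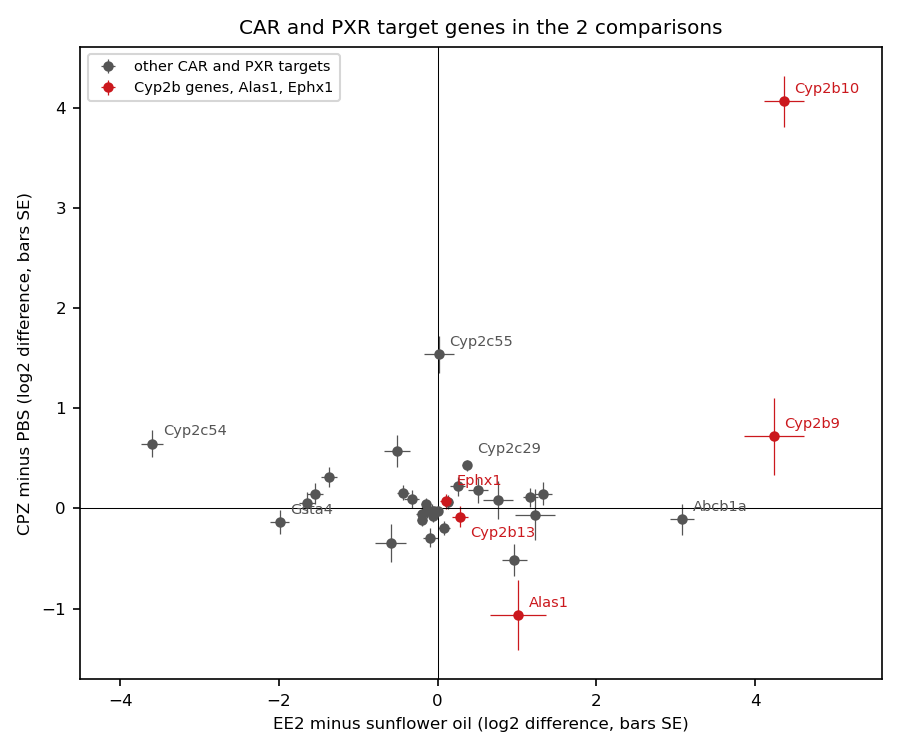
Log2 difference with EE2 (x axis, EE2 minus oil) against that with CPZ (y axis, CPZ minus PBS) for the 5 genes followed here and the 30 further CAR and PXR targets, a point per gene with its SE on both axes. Cyp2b10 lies far out on both axes (4.36 and 4.07), Cyp2c55 on the CPZ axis alone (0.01 and 1.54), and Cyp2c54 at the far left (-3.59 and 0.65).

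Of a list of electron transfer genes, whose products are not all microsomal, 5 of 6 were analysed. With EE2 0 of them rose and 3 fell, against 19.2% of all genes higher and 26.7% lower. Cyb5b, a cytochrome of the outer mitochondrial membrane, fell by 1.03 (SE 0.07, limma adjusted p = 1.03e-10), and Cyb5r3, the reductase that passes electrons to such cytochromes, fell by 0.59 (SE 0.07, adjusted p = 3.5e-07). Pgrmc1, a heme-binding membrane protein, fell by 0.14 (SE 0.05, adjusted p = 0.017), a call lost with only the EE2 and oil arrays in the model (0.0554), with quantile normalization (0.0578), when sample number was a covariate (0.117) and without EE2 array 18 (0.0515). Of the aldo-keto reductase 1b family and its relative Akr1a1, 3 of 5 were analysed. Akr1b10 rose by 0.61 (SE 0.13, adjusted p = 5.11e-04), Akr1a1 rose by 0.11 (SE 0.04, adjusted p = 0.0283) but stood at -0.05 with centred arrays, and Akr1b8 fell by 0.34 (SE 0.12, adjusted p = 0.0266). The Akr1b8 call was lost when sample number was a covariate (difference -0.21, adjusted p = 0.219) and without EE2 array 15 or 18 or oil array 5 or 6 (adjusted p up to 0.0819). The Akr1a1 call was also lost without EE2 array 13 or 17 or oil array 8 or 16, with only the EE2 and oil arrays in the model and when sample number was a covariate (adjusted p up to 0.066). With CPZ 0 of these 8 genes were called by limma, where 0.796% of all genes were called. In the aldo-keto reductase list 2 had an unadjusted p under 0.05, with no share of all genes at that cut-off beside it.

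Since Cyp2b9 and Cyp2b13 are female-biased in mouse liver, the other P450 genes with a sex bias were read beside them. Of 6 female-biased P450 genes analysed, which include Cyp2b9 and Cyp2b13 themselves, 3 rose and 1 fell with EE2. Of all genes 19.2% were higher and 26.7% lower. Cyp3a16 and Cyp3a44 were not called. Cyp17a1, a steroid-hydroxylating P450, rose by 7.20 (SE 0.29, limma adjusted p = 4.3e-14), and Cyp39a1, an oxysterol hydroxylase, fell by 2.03 (SE 0.21, adjusted p = 9.86e-08); Cyp2b9 and Cyp2b13 were the other rises. Of 4 male-biased P450 genes 1 rose and 3 fell, beside the same shares of all genes. Cyp4a12a, a fatty acid hydroxylase, fell by 4.82 (SE 0.26, adjusted p = 4.16e-12), Cyp2u1 by 2.72 (SE 0.15, adjusted p = 6.64e-12) and Cyp2d9 fell by 1.40 (SE 0.12, adjusted p = 7.15e-09). Cyp7b1, another oxysterol hydroxylase, rose by 0.98 (SE 0.12, adjusted p = 1.13e-06). With CPZ 0 of these 10 genes were called by limma, where 0.796% of all genes were called. In the female-biased list 1 had an unadjusted p under 0.05, with no share of all genes at that cut-off beside it.

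The genes with profiles most like Cyp2b10 and Cyp2b9 were found by the root mean square difference of centred and scaled profiles over the 20 arrays, among 870 genes with an SD of at least 0.5. The nearest genes were thus picked by their levels on the arrays that also give their differences and p-values. Those values partly restate the choice and are no separate evidence. Closest to Cyp2b10 were Ube2u (difference 0.471), 1700067K01Rik (0.517), Acnat2 (0.636), Orm3 (0.638) and Csrp3 (0.654). Ube2u, a ubiquitin-conjugating enzyme, rose with EE2 by 1.13 and with CPZ by 0.46 (SE 0.11 for both, limma adjusted p = 0.0406 for CPZ), and it was lower with oil than with PBS by a difference of -0.70 (SE 0.11, adjusted p = 0.00937). 1700067K01Rik rose with EE2 by 0.91 and with CPZ by 1.14 (SE 0.18 for both, adjusted p = 0.0049 for CPZ). Acnat2, an acyltransferase of bile acid and fatty acid conjugation type, rose with EE2 by 2.85 and with CPZ by 1.28 (SE 0.28 for both, adjusted p = 0.0365 for CPZ). Orm3, an acute phase protein gene, rose with EE2 by 4.16 and did not pass with CPZ (1.67, SE 0.54, adjusted p = 0.171). Csrp3, a muscle LIM protein gene, rose with EE2 by 1.39 and with CPZ by 0.64 (SE 0.12 for both, adjusted p = 0.0114 for CPZ). The CPZ calls of Ube2u and Acnat2 were lost in most fits that left out 1 CPZ or PBS array, and that of Csrp3 when sample number was a covariate (adjusted p = 0.0817). Closest to Cyp2b9 were Lratd2 (0.284), the membrane metalloproteinase Mmp14 (0.284), Nipal1 (0.287), the fatty acid receptor Cd36 (0.292) and the organic anion transporter gene Slc22a27 (0.308). They rose with EE2 by 1.82, 1.22, 3.62, 2.32 and 2.02. With CPZ 0 of these 5 were called by limma, where 0.796% of all genes were called.

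The series as a whole set limits on these readings. Medians of the EE2 arrays over named genes (4.64 to 4.67) were above those of the other 15 arrays (4.47 to 4.54), and centring each array on its median moved the median EE2 difference of all genes from -0.07 to -0.23 and the share of calls that were higher from 41.9% to 17.4%. With centred arrays Akr1a1 turned and Cyp2b13 and Nr1i2 lost their calls, as given above, while Cyp2b10 and Cyp2b9 kept theirs. In whole liver RNA, fewer cells of a type and less RNA per cell cannot be told apart. The marker counts below stand beside 19.2% of all genes higher and 26.7% lower with EE2, and 0.443% and 0.352% with CPZ. Macrophage markers moved with EE2 and less with CPZ: 11 of 12 were higher with EE2, with a summed linear level of 10998 to 16758 against 4058 to 5148 with oil, and 3 of 12 were higher with CPZ, at 4590 to 8348 against 3315 to 4294 with PBS. Lymphocyte markers were higher with EE2 for 6 of 8, at 590 to 761 against 204 to 247. Neutrophil markers were higher with EE2 for 2 of 8, S100a8 and S100a9, a share near that of all genes. Their summed level was 562 to 933 against 121 to 162. Of 8 endothelial markers 2 were higher and 3 lower with EE2, at 1424 to 1954 against 1777 to 2057 with oil. With CPZ neutrophil markers stood at 130.2 to 262 against 129.8 to 295 with PBS, with 0 of 8 called by limma, and endothelial markers were higher for 3 of 8, at 2037 to 2236 against 1487 to 1754. Hepatocyte markers, the sign of the labelled tissue, were present on all arrays at 90142 to 91487 with EE2 and 95844 to 99104 with oil, with 2 of 9 higher and 5 lower, and at 93866 to 97419 with CPZ and 95312 to 99702 with PBS, with 0 of 9 called by limma. The part of these cell markers in the results above was not tested.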

How the data were processed

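Liver RNA was biotin-labelled for Affymetrix arrays, per the labels' protocols. The deposited table holds log2 levels for 17306 probe sets on 20 arrays (1.91 to 14.2), which the authors summarised by RMA, per the submitters' processing notes. No source used here gives its probe definition or genome build. Values were used as deposited, without a filter. Names came from GEO's platform annotation: 16464 probe sets had 1 symbol and were tested, 0 had several, and 842 were unnamed here and left out. One limma model (R 4.3.3, limma 3.58.1) of 4 group means over all 20 arrays, with 16 residual degrees of freedom, gave 4 comparisons: EE2 minus oil, CPZ minus PBS, oil minus PBS, and the difference between the EE2 and CPZ responses. A gene was called, or said to rise or fall, at a two-sided p under 0.05 after Benjamini-Hochberg adjustment over all genes. Precision is limited by the 5 arrays per group.

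The genes followed and the gene lists were chosen with earlier results of these data known. Genes were named by rule: the genes followed, Nr1i3, Nr1i2, Cyp2c29, Cyp2c55, Cyp3a11, up to 4 called genes with the smallest p from each list, and the 5 profiles nearest to Cyp2b10 and to Cyp2b9. Cyp2a12, Cyp2f2 and the readings on CPZ array 3 were named after their values were seen. Promoters were aligned with Biopython 1.88. Tested on simulated data for EE2 minus oil with 16464 genes, the model recovered 86% of 50 genes shifted by 0.5, 98% at 1 and 100% at 2 and at 4, with 17 false calls among 209. The simulation used independent normal noise, no shift of whole arrays, and far fewer changed genes than the 45.9% called with EE2. Its recovery therefore does not carry over to the real comparison. The alternatives were quantile normalization, centred arrays, a filter on low levels, leaving out single arrays, the sample number as covariate, array weights, a fit on only those arrays compared, and an intensity trend with robust prior.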

Additional observations from a re-analysis of the deposited data

Results flagged for a closer look

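Among the 20 pairs of a gene and a group, each of 5 arrays, a single array stood apart from the others of its group in 2, and chance alone gives this in about 1 of 20 groups. Cyp2b9 read 6.44 on CPZ array 3, against 3.70 to 4.19 on the other CPZ arrays. Ephx1 read 11.88 on EE2 array 15, against 12.04 to 12.09 on the other EE2 arrays.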

How the results depend on the processing

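The calls of Cyp2b10 and Cyp2b9 with EE2 and of Cyp2b10 with CPZ held in all alternatives. Genes called with EE2 numbered 7560, and 11846 with centred arrays; leaving out 1 array gave 6885 to 7246, and 2 to 4 of the genes followed. With CPZ the 131 calls became 237 with array weights, 64 with only the arrays of the comparison and 20 with sample number as a covariate; leaving out 1 array gave 47 to 148, with Cyp2b10 called each time. Between vehicles the 8 calls became 13 with an intensity trend, 0 with only their own arrays (limma) and 2 with sample number; leaving out 1 array gave 2 to 19, and 0 to 1 of the genes followed. For the difference of responses the 5209 calls became 8194 with centred arrays and 3048 with sample number, which left 1 of the genes followed, Cyp2b9; leaving out 1 array gave 4730 to 5264 calls, and 2 to 3 of the genes followed. Differences that turned were near 0 in size. With centred arrays Ephx1 stood at -0.0561 with EE2 and at -0.11 for the difference of responses, which ran from -0.0100 (without CPZ array 1) to 0.0902 with 1 array left out and was -0.00138 without PBS array 10, and Akr1a1 stood at -0.0512 with EE2. Cyp2b13 between vehicles became -0.00454 with quantile normalization and -0.0415 with sample number, and with 1 array left out it ran from -0.0450 to 0.0370 and was negative without PBS array 10 or 19 or oil array 6 or 8. Of the lists, the regulators lower with EE2 went from 4 to 8 with centred arrays. The further targets lower with EE2 went from 12 to 7 with sample number and ran from 7 to 18 over all alternatives. The cluster genes lower with EE2 went from 2 to 0 with quantile normalization or sample number, and to 4 with centred arrays. The causes were not tested. Cyp2b13 fell below the filter on low levels and has no value there. The difference of responses uses all arrays, so a fit on its own arrays was not run. No paired analysis was possible because no 2 groups share a sample number.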

Other observations

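CPZ array 3, chosen after its values were seen, was the highest CPZ array for both Cyp2b10 (9.17) and Cyp2b9 (6.44). No other gene stood as far above the other 9 CPZ and PBS arrays on that array as Cyp2b9, by 2.25. The next were Egr1 by 1.27 and Cyp4a14 by 1.25. Larger gaps occurred on other arrays, for Esm1 by 2.78 on PBS array 19 and for Ighg1 by 2.51 on CPZ array 11. Of the other female-biased P450 genes, Cyp39a1 read 9.07 on CPZ array 3 against 8.13 to 8.78 on the other 9 arrays. Cyp17a1 (7.17), Cyp2b13 (2.97), Cyp3a44 (7.27) and Cyp3a16 (2.84) lay within the range of the other 9.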
